A study of Mus musculus with 6 samples.

Results

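Cdk6, Cdk4, the 3 D-type cyclins (Ccnd1, Ccnd2 and Ccnd3), the Cdk inhibitors Cdkn1a, Cdkn1b and Cdkn2c and the retinoblastoma gene Rb1 were examined as a set of 9 genes, out of 54393 genes in the deposited table. The genes were taken by their GENCODE M21 symbols, and Cdk6 was chosen by its lower normalized counts in the mutant. Its difference between genotypes is therefore given as a description, without a test. RNA was sequenced from the tibialis anterior, a fast muscle of the shin, in adult mice. The WT (wild-type) group, titled C57, and the Dock3 KO group, in which the gene Dock3 is knocked out, had 3 muscles each. The Dock3 protein is an exchange factor for the small GTPase Rac. No treatment, age in weeks or Cre driver is given in the labels, and all muscles are whole tissue that holds several cell types. Values of a gene are always given in the order of WT replicates 1, 3 and 4, then Dock3 KO (mutant) replicates 1, 2 and 3.

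Cyclin-dependent kinases 4 and 6 pair with a D cyclin early in the cell cycle and phosphorylate the retinoblastoma protein, which releases E2F transcription factors and lets DNA replication genes be switched on. Proteins of the INK4 group, which includes the product of Cdkn2c, bind Cdk4 and Cdk6 directly, and the products of Cdkn1a and Cdkn1b bind cyclin-Cdk complexes. Adult muscle fibres have left the cell cycle. In muscle, D cyclins, Cdkn1a and the retinoblastoma protein are best known from the withdrawal of myoblasts from division when they differentiate.

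The promoter sequences of both kinase genes are shown first because Cdk4 and Cdk6 share partners and a substrate but stood far apart in Dock3 KO muscle. They come from RefSeq on GRCm38.p6, run 5′ to 3′ on the plus strand and end before the first exon in GENCODE M21 that they meet. Capitals mark CACGTG, the E-box core that basic helix-loop-helix factors can bind. The Cdk6 stretch is chr5:3343643-3343731 and the Cdk4 stretch is chr10:127063285-127063533. The Cdk6 stretch lies before a RefSeq start but inside the gene as GENCODE M21 gives it, which begins upstream at 3341485, whereas the Cdk4 stretch lies outside the Cdk4 gene.
Cdk6: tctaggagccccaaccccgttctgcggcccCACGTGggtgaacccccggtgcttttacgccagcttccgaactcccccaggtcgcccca
Cdk4: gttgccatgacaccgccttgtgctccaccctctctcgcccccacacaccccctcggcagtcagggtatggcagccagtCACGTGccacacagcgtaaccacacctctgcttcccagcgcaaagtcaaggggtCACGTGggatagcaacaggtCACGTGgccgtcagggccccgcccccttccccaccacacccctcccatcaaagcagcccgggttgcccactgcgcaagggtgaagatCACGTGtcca
Counted from the RefSeq start, the E-box of Cdk6 begins at -220 and those of Cdk4 at -172, -118, -98 and -11. RefSeq windows of 250 bases before to 50 after a start were searched on both strands. Of 32851 windows, 7.15% held CACGTG at least once, and 8 windows (0.0244%) held it at least 4 times, that of Cdk4 among them. GGGCGG, the core of Sp1-like sites, was found in 35.7% of windows, 3 times in that of Cdk4 and not in that of Cdk6. E2F-like matches (TTTGGCGC, TTTCCCGC, TTTGGCGG or TTTCCCGG) were found in 3.32% of windows and in none of the 9 windows of the 6 genes of the set that had one. A FoxO-like match (TGTTTAC) was found in 3.65% of windows and in 1 of these 9, a Ccnd3 window. These matches describe the letters only and were not tested as binding sites.

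Dock3 was read first as a check of the genotype labels. Its normalized counts were 169, 161 and 118 for WT against 22.4, 1.78 and 1.54 for the mutant. The values did not overlap (log2 difference -4.76, adjusted p = 0.0140, limma over 16031 genes with Benjamini-Hochberg adjustment). The low values of the table put the depth of the samples at approximately 21700000 to 32400000 reads. The RNAs Gm42418 and Lars2 together took 3.00% to 3.51% of the sum in WT and 17.9%, 20.3% and 3.64% in Dock3 KO replicates 1, 2 and 3, so Dock3 KO replicate 3 is the mutant muscle that resembles WT in that share. Muscle fibre markers (7 of 7 tested, among them Acta1, Ckm and Myh4) summed to 1257420 to 1370800 normalized counts in WT and 1263040 to 1411910 in Dock3 KO. Nothing in the labels says whether the 3 muscles of a genotype came from 3 animals, so the p-values measure the spread between these samples.

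**Figure D1:**
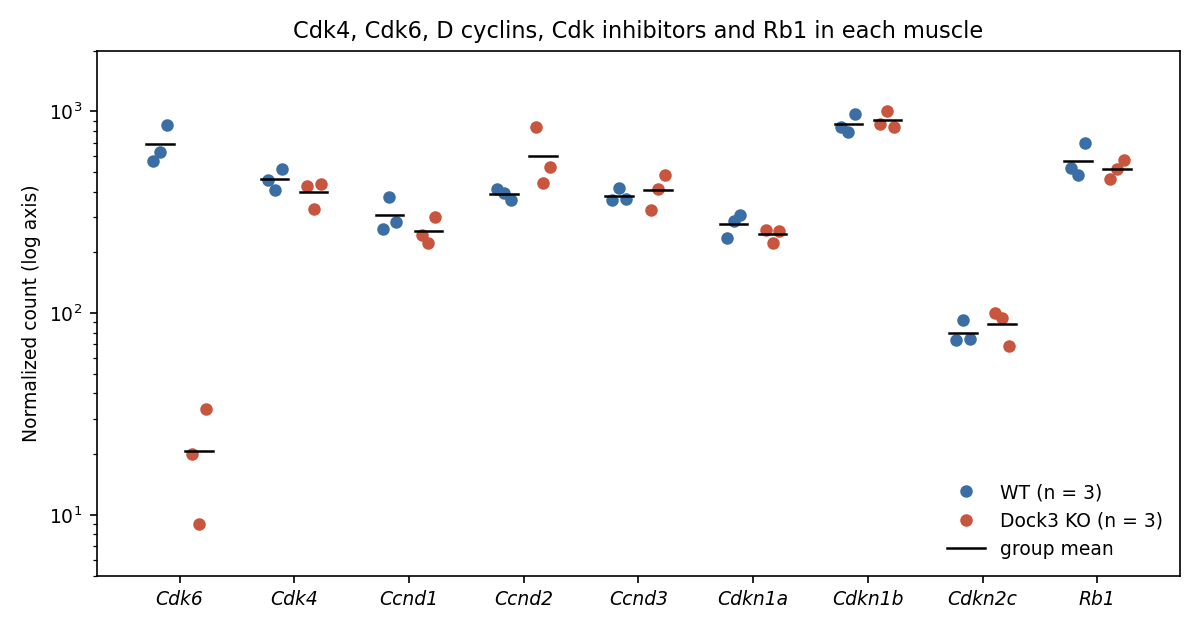
Normalized counts (log axis) of the 9 genes in each of 6 muscles, with 3 WT and 3 Dock3 KO points per gene and a bar at each group mean. Cdk6 lies between 571 and 862 in WT and between 8.99 and 33.5 in Dock3 KO, and the other 8 genes lie between 69.2 and 1003 in every muscle.

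Cdk6 (ENSMUSG00000040274, chromosome 5, 3341485 to 3531008, plus strand of GRCm38) was far lower in Dock3 KO muscle. The WT muscles had 571, 626 and 862 normalized counts. The mutant muscles had 20.0, 8.99 and 33.5. The lowest WT muscle was therefore above the highest Dock3 KO muscle by more than an order of magnitude. The WT mean was 686 ± 154 (SD, n = 3) and the mutant mean 20.8 ± 12.3 (SD, n = 3), so that the mutant was at 3.04% of WT, or 32.9-fold lower. On the scale of log2(normalized count + 1) the difference was -5.13. In whole muscle, fewer cells that express a gene and less of its RNA per cell cannot be told apart.

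The spread of Cdk6 was wider in the mutant, at a coefficient of variation of 59.0% against 22.5% in WT. The values in Dock3 KO correspond to approximately 14.3, 5.89 and 43.3 reads, against approximately 644, 758 and 1046 reads in WT, so the mutant values rest on few reads. Dock3 KO replicate 3, whose Gm42418 and Lars2 share was like that of WT, had the highest Cdk6 value of the mutant muscles. Set alone against the WT muscles it gave a log2 difference of -4.29. With log2 Gm42418 as a covariate the log2 difference was -4.16, the least negative of 19 alternatives. Gm42418 was high only in Dock3 KO replicates 1 and 2, so that covariate cannot be told apart from genotype in those muscles. The covariate fit therefore rests mostly on Dock3 KO replicate 3 against WT.

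Cdk6 was among the largest falls in the table. Of 13437 protein-coding genes tested, 2 had a more negative log2 difference, namely Gm10184 (-7.59) and Hal (-7.51), the latter encoding histidine ammonia-lyase. Over genes of every type, 22 were more negative, and 18 of these were pseudogenes. These ranks place Cdk6 and are not a test of it.

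Cdk4 (chromosome 10, 127063534 to 127067920, plus strand), the other kinase that partners D cyclins, had overlapping values in the genotypes. Its normalized counts were 457, 406 and 520 for WT against 425, 328 and 439 for the mutant. All mutant values but that of replicate 2 lay inside the WT range. The log2 difference was -0.22 with a 95% interval of -0.60 to 0.16 (adjusted p = 0.740, limma). The interval covers both a moderate fall and a small rise, and it does not reach the size seen for Cdk6.

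Levels of both kinases were then set side by side per kilobase of merged exons, since Cdk6 has 13989 exonic bases and Cdk4 has 3249. Cdk6 made up 22.5%, 26.4% and 27.8% of the summed level of both in the WT muscles. In the mutant muscles it made up 1.08%, 0.633% and 1.74%. WT muscle thus carried both kinase mRNAs with Cdk4 ahead, and mutant muscle carried nearly only Cdk4 mRNA. The ratio of Cdk6 to Cdk4 per kilobase was 0.345 ± 0.0488 (SD, n = 3) for WT and 0.0117 ± 0.00573 (SD, n = 3) for the mutant. The summed level per kilobase of both genes was 191 ± 27.2 (SD, n = 3) for WT and 124 ± 19.4 (SD, n = 3) for the mutant. Since Cdk6 enters these values, they too are descriptions.

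**Figure D2:**
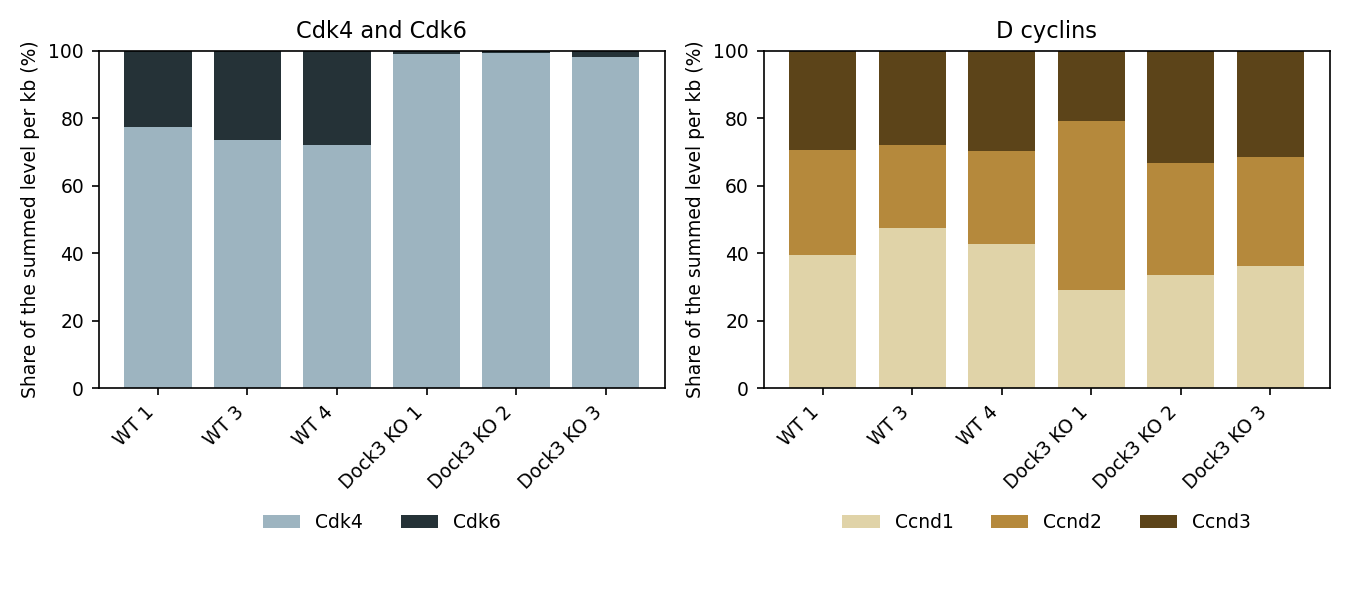
Share (%) of each gene in the summed level per kilobase of Cdk4 and Cdk6 (left) and of the D cyclins (right), 1 stacked bar per muscle. Cdk6 takes 22.5% to 27.8% in WT and 0.633% to 1.74% in Dock3 KO, and Ccnd2 takes its largest share, 50.2%, in Dock3 KO replicate 1.

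Among the D cyclins, the regulatory partners of Cdk4 and Cdk6, Ccnd2 had values that did not overlap between genotypes. Ccnd2 (chromosome 6, 127125162 to 127152193, minus strand) had normalized counts of 414, 395 and 365 for WT against 841, 442 and 531 for the mutant. Each mutant muscle lay above each WT muscle, and replicate 1 stood apart from the other mutant muscles. The means were 391 ± 24.5 (SD, n = 3) and 605 ± 210 (SD, n = 3). The log2 difference was 0.57 with a 95% interval of 0.08 to 1.07, which excludes 0 before adjustment (unadjusted p = 0.0269, limma) but not after it (adjusted p = 0.376, limma). It was 0.31 without Dock3 KO replicate 1.

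Ccnd1 (chromosome 7, 144929931 to 144939925, minus strand), the D cyclin best known as a target of growth factor signalling, had 262, 379 and 283 normalized counts for WT. It had 244, 224 and 300 for the mutant, of which only replicate 3 lay inside the WT range. The log2 difference was -0.26 with a 95% interval of -0.70 to 0.18 (adjusted p = 0.725, limma). Ccnd3 (chromosome 17, 47505051 to 47599691, plus strand), the D cyclin known to accumulate in differentiating muscle cells, had 364, 415 and 369 normalized counts for WT. The mutant had 324, 415 and 487, on both sides of the WT range. Its log2 difference was 0.08 with a 95% interval of -0.32 to 0.47 (adjusted p = 0.937, limma).

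The makeup of the D cyclin pool was compared as shares of the summed level per kilobase. Ccnd1 made up 39.5%, 47.4% and 42.7% for WT against 29.0%, 33.5% and 36.3% for the mutant. Ccnd2 made up 31.1%, 24.7% and 27.5% for WT against 50.2%, 33.1% and 32.2% for the mutant. By merged exons, Ccnd1 held the largest share in each WT muscle. In the mutant Ccnd2 held the largest in replicate 1 and Ccnd1 in replicates 2 and 3. This order depends on the length used, since Ccnd3 has 8775 merged exonic bases but 3858 in its longest transcript. By the longest transcript, Ccnd3 would hold the largest share in each WT muscle and in Dock3 KO replicates 2 and 3. The merged-exon shares of Ccnd1 and of Ccnd2 did not overlap between groups (exact two-sided permutation p = 0.1 for each, 0.15 after adjustment over 3 shares). The smallest p that 3 against 3 samples allow is 0.1. Since the shares are parts of one sum in each muscle, a larger share of Ccnd2 lowers the others, and these 2 results are not independent. Ccnd3 held 29.0% ± 1.02 (SD, n = 3) for WT and 28.6% ± 6.83 (SD, n = 3) for the mutant (exact permutation p = 1). The summed level per kilobase of the D cyclins was 151 ± 16.5 (SD, n = 3) for WT and 165 ± 20.3 (SD, n = 3) for the mutant, with overlapping values.

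Cdkn1b (chromosome 6, 134920401 to 134925513, plus strand), which encodes the inhibitor p27, had 842, 792 and 974 normalized counts for WT. The mutant had 872, 1003 and 834. The genotypes overlapped, and the log2 difference was 0.05 with a 95% interval of -0.26 to 0.37 (adjusted p = 0.945, limma). This was the narrowest interval of the 8 genes.

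Cdkn1a (chromosome 17, 29090976 to 29100727, plus strand), which encodes p21, an inhibitor and a target of p53 and of MyoD, had 237, 288 and 308 normalized counts for WT. The mutant had 259, 224 and 254. The genotypes overlapped, with a log2 difference of -0.17 and a 95% interval of -0.55 to 0.21 (adjusted p = 0.813, limma).

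Cdkn2c (chromosome 4, 109660876 to 109667189, minus strand), which encodes the INK4 protein p18, had the lowest mean level per kilobase of the 8 genes. Its normalized counts were 73.6, 92.2 and 74.6 for WT against 100.1, 94.8 and 69.2 for the mutant. The mutant values fell on both sides of the WT range, and the log2 difference was 0.12 with a 95% interval of -0.43 to 0.68 (adjusted p = 0.925, limma).

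Rb1 (chromosome 14, 73183673 to 73325822, minus strand), the substrate of the D cyclin kinases, had 526, 486 and 699 normalized counts for WT. The mutant had 464, 517 and 573. The genotypes overlapped, and the log2 difference was -0.13 with a 95% interval of -0.51 to 0.26 (adjusted p = 0.875, limma).

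**Figure D3:**
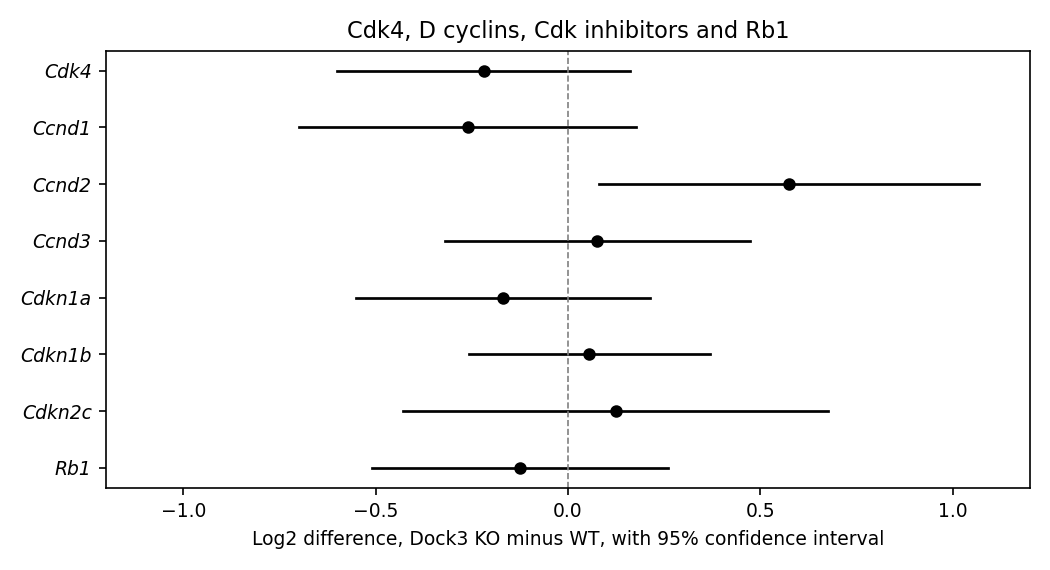
Log2 difference (Dock3 KO minus WT, on log2(normalized count + 1)) of the 8 genes other than Cdk6, with 95% confidence intervals from limma and 3 muscles per genotype. The points run from -0.26 for Ccnd1 to 0.57 for Ccnd2, and the interval of Ccnd2 alone excludes 0 before adjustment.

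All 9 genes passed the filter on low values, and 0 of the 8 other than Cdk6 passed an adjusted p of 0.05 in limma, with 1 at an unadjusted p under 0.05. Over all genes tested, 165 of 16031 passed (1.03%), 71 higher and 94 lower in Dock3 KO, and 10.5% were at an unadjusted p under 0.05. The genotypes did not overlap for 1 of the 8 (12.5%), against 2605 genes (16.2%) over the whole table, so the count is near the background. The median log2 difference of the 8 was -0.04, beside -0.0073 over all genes tested. Rescaling the samples to the same total moved the median of all genes to -0.28, and the log2 differences of Ccnd3 (-0.20), Cdkn1b (-0.22) and Cdkn2c (-0.15) then lay below 0, within that shift.

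The order of the levels per kilobase of merged exons was described within each genotype. In WT it ran from Cdkn1b at 191 ± 20.6 (SD, n = 3) through Cdk4 at 142 ± 17.5, Rb1 at 94.8 ± 18.8, Cdkn1a at 78.1 ± 10.3, Ccnd1 at 65.4 ± 13.1, Cdk6 at 49.1 ± 11.0, Ccnd3 at 43.7 ± 3.21 and Ccnd2 at 41.6 ± 2.60 to Cdkn2c at 29.8 ± 3.90. Only 3 neighbours in that order had ranges that did not overlap, namely Cdkn1b and Cdk4, Cdk4 and Rb1, and Ccnd2 and Cdkn2c. By this length, WT Cdk6 mRNA was therefore within the range of its D cyclin partners. Part of the order depends on the length used, since Cdk4 has 2053 bases in its longest transcript and Cdkn1b has 4552 by both lengths. In WT means by the longest transcript, Cdk4 would stand above Cdkn1b, Cdkn1a above Rb1 and Ccnd3 above Ccnd1. Cdk6 would then have a lower mean than Ccnd1, Ccnd2 and Ccnd3. Its range would overlap those of Ccnd1 and Ccnd2 but not that of Ccnd3. By merged exons in Dock3 KO, Cdk6 came last at 1.49 ± 0.88 (SD, n = 3) and did not overlap Cdkn2c, the next gene up at 32.8 ± 6.16. Ccnd2 stood at 64.3 ± 22.3, and its range overlapped those of Cdkn1a above it and Ccnd1 below it.

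Other genes of the pathway were taken as 9 lists of 80 genes, of which 67 were tested and 13 fell below the filter. None of the 67 passed an adjusted p of 0.05 in limma, and 7 were at an unadjusted p under 0.05 (2 higher and 5 lower in Dock3 KO). Over all genes tested, 1.03% passed and 10.5% were at an unadjusted p under 0.05. The genotypes did not overlap for 10 of the 67 (14.9%; 4 higher and 6 lower), beside 16.2% of all genes, and the median log2 difference was 0.00. Many of the division genes were hardly detected in these muscles. Of 9 mitosis genes, 6 fell below the filter, including Cdk1, Ccnb1, Plk1 and Bub1. Of 5 genes for cyclin E, cyclin A and Cdk2, Ccne1, Ccna1 and Ccna2 fell below it.

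**Figure D4:**
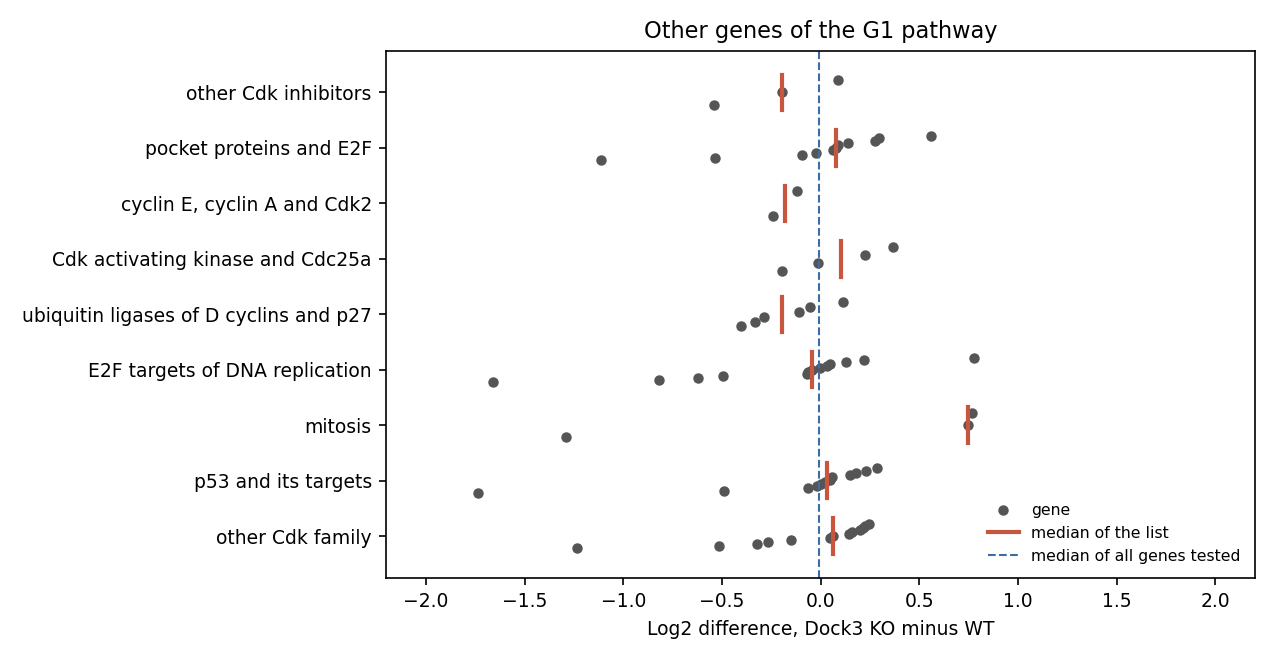
Log2 difference (Dock3 KO minus WT) of each tested gene in 9 pathway lists, with the median of each list and of all genes tested (dashed line, -0.0073). No gene passed an adjusted p of 0.05, and list medians other than that of mitosis, which has 3 tested genes, lie between -0.20 and 0.11.

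The most abundant gene per kilobase of each list gave the following values. Cdkn1c, which encodes the inhibitor p57, had the highest level per kilobase of the other Cdk inhibitors and a log2 difference of 0.09 (95% interval -0.33 to 0.50). E2f6, a repressive E2F and the most abundant of the pocket protein and E2F list (11 tested), had 2302, 2219 and 2035 normalized counts for WT. The mutant had 2680, 2648 and 2593, above each WT value, with a log2 difference of 0.27 (95% interval 0.02 to 0.53, adjusted p = 0.434, limma). Among 13 tested replication genes that E2F controls, Pcna, the DNA polymerase clamp, had the highest level per kilobase and a log2 difference of 0.03 (95% interval -0.42 to 0.49).

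Ccng1, a cyclin induced by p53, was by far the most abundant per kilobase of all 67 genes and had a log2 difference of -0.06 (95% interval -0.40 to 0.27). Fbxo31, a subunit of a ubiquitin ligase for cyclin D1, had a log2 difference of 0.11 (95% interval -0.19 to 0.41). Ccnh, the cyclin of the Cdk activating kinase, had one of -0.19 (95% interval -0.56 to 0.17), and Ccne2, which encodes a cyclin E, one of -0.24 (95% interval -0.91 to 0.43). Cdk16, a kinase of the wider Cdk family, had one of 0.06 (95% interval -0.21 to 0.34). All of these intervals cover 0, unlike that of E2f6.

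Aurka, a mitotic kinase and the most abundant tested gene of the mitosis list, had the lowest adjusted p of the 67 genes. Its normalized counts were 349, 155 and 507 for WT against 149, 127 and 97.9 for the mutant. The genotypes did not overlap, but WT replicate 3 and Dock3 KO replicate 1 were close. The log2 difference was -1.29 with a 95% interval of -2.13 to -0.45 (adjusted p = 0.209, limma). The other tested mitosis genes, Mki67 and Top2a, had log2 differences of 0.77 and 0.75 with intervals that cover 0, so the list did not move one way.

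Annotated genes on either side of Cdk6 were examined next. Of 38 genes within 1 Mb, 16 were tested, 0 passed an adjusted p of 0.05 in limma, and 1 was at an unadjusted p under 0.05. The shares over all genes tested were 1.03% and 10.5%. The genotypes did not overlap for 2 of the 16 (12.5%), beside 16.2% of all genes. Fam133b, whose start lies 12.8 kb beyond the end of Cdk6, had normalized counts of 217.8, 167 and 181 for WT against 209.9, 249.7 and 242 for the mutant. Its log2 difference was 0.31 with a 95% interval of -0.09 to 0.71 (adjusted p = 0.618, limma). On the other side the nearest tested gene was the pseudogene Gm15772, 104.6 kb away and low in every muscle (3.65 to 18.97 normalized counts), with a log2 difference of 1.16 (95% interval -0.18 to 2.51). The lowest log2 difference among the tested neighbours was -0.76, against -5.13 for Cdk6.

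**Figure D5:**
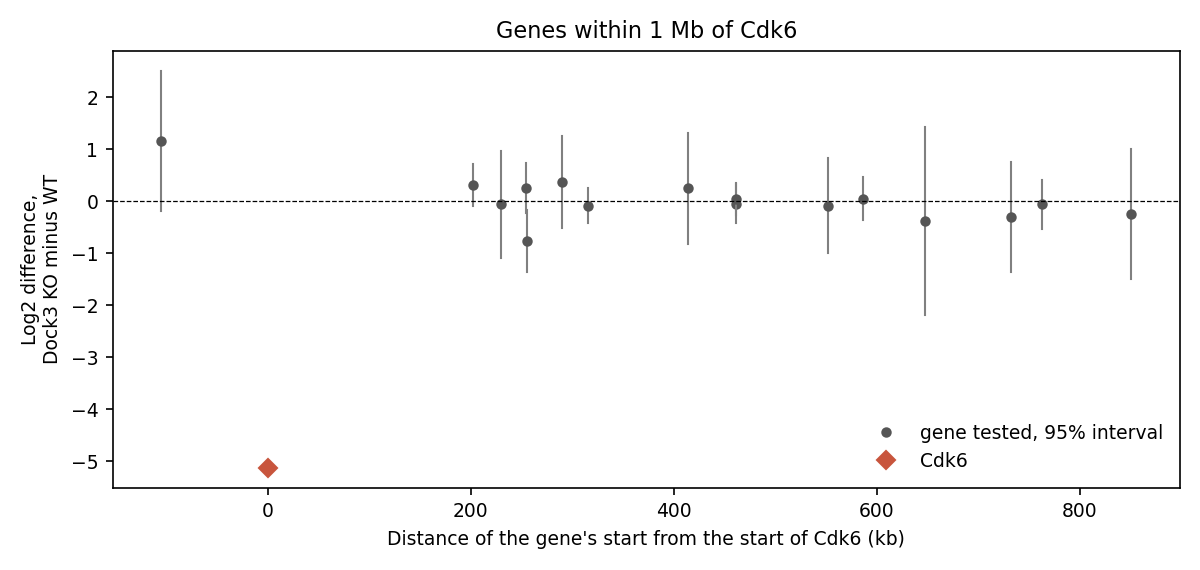
Log2 difference (Dock3 KO minus WT) against the distance in kb of each gene's start from the start of Cdk6, for 16 tested genes within 1 Mb, with 95% intervals, and for Cdk6 itself without one. The neighbours lie between -0.76 and 1.16, and Cdk6 lies at -5.13.

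Reads shared with other genes could alter these values, since strand use in counting and the assignment of reads that match several genes are not given in the sources used here. Both annotated genes that overlap Cdk6, the antisense genes Gm42435 and Gm17590, were listed at 0 in all 6 muscles. Cdk4 overlaps Tspan31 on the other strand, which had a mean of 560 normalized counts and a log2 difference of -0.18 (adjusted p = 0.724, limma). Ccnd1 overlaps LTO1, Ccnd3 overlaps Bysl, and Rb1 overlaps Rcbtb2 and Lpar6, each on the other strand with a mean above 10, and none of these passed the threshold.

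Near-identical copies were found for Cdk6 alone of the 9 genes. Of 8 copies, 2 matched its coding part, namely the pseudogenes Gm16505 (mean 4.68 normalized counts) and Gm42961, which was listed at 0 in all muscles. The other 6 copies, the short noncoding genes Gm22692, Gm22993, Gm23638, Gm24303, Gm25072 and Gm25535, matched bases 3159 to 3285 of the 11525-base transcript, outside the coding part. Their highest mean was 61.3 normalized counts, and none passed the threshold. In the mutant, Gm23638, Gm24303 and Gm25072 had means of 64.5, 47.2 and 37.2 normalized counts, above the Cdk6 mean of 20.8, and in WT all copies stood below Cdk6. How reads were divided between Cdk6 and these copies was not tested.

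Genes whose values run most like those of Cdk6 over the 6 muscles were sought as a description. Pearson's r on the log2 scale was highest for Sh3bgrl3, Rpl15-ps2, BC018473, Gm11868 and Gm15920, between 0.991 and 0.998, and 97 genes reached 0.95. All share the genotype difference with Cdk6, which alone gives high values of r. Sh3bgrl3, the only protein-coding gene of the 5, had normalized counts of 254, 248 and 260 for WT against 158, 141 and 172 for the mutant. The pseudogenes Rpl15-ps2, Gm11868 and Gm15920 lay below 60 normalized counts in each mutant muscle.

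Marker genes of the cell types in whole muscle were read beside these results. The summed level of 5 satellite cell (muscle stem cell) markers was 619 to 836 normalized counts in WT and 523 to 530 in Dock3 KO, without overlap. Most of that sum was Myod1, a myogenic transcription factor, which had 516, 717 and 707 normalized counts for WT against 401, 461 and 462 for the mutant. Of the 3 satellite cell markers tested (Myod1, Pax7 and Myf5), 0 had a log2 difference above 0, and 0 passed the threshold. The genotypes did not overlap for 1 of them, beside 16.2% of all genes tested. The list did not move one way, since the 2 untested markers had higher means in the mutant. Chrdl2 was higher in each mutant muscle (8.88 to 15.1 normalized counts) than in each WT muscle (2.83 to 7.19), Calcr had 5.16, 3.34 and 3.90 for WT against 11.97, 7.15 and 3.28 for the mutant, and both were below the filter and not tested. The defining marker Pax7 was at the WT level in Dock3 KO replicate 1 (71.0) and lower in replicates 2 and 3 (19.4 and 24.6). The summed level of 6 leukocyte markers was 1772 to 2049 in WT and 1226 to 1699 in Dock3 KO, also without overlap, with Cd3e listed at 0 in 1 muscle. Most of that sum was Csf1r, with 1429, 1248 and 966 normalized counts for WT against 1096, 686 and 1042 for the mutant. The genotypes overlapped for each of the 5 leukocyte markers tested, and 0 of these had a log2 difference above 0. Cd3e, not tested, had means of 1.07 for WT and 2.96 for the mutant. The sums of 5 fibroblast, 5 endothelium, 5 adipocyte, 5 Schwann cell and 5 erythrocyte markers overlapped between genotypes. The share of all genes tested without overlap, 16.2%, is for single genes, and no such share was taken for sums. The erythrocyte sum stood apart in Dock3 KO replicate 1, at 97653 against 28542 to 54916 in the other 5 muscles, and that muscle also had the highest Ccnd2 value. Its part in the Ccnd2 values was not tested. Col15a1 of the fibroblast list was the only marker past the threshold (log2 difference 0.93, adjusted p = 0.0134, limma). The share of all genes tested that passed was 1.03%. Of the 5 fibroblast markers tested, 3 had a log2 difference above 0, and Dcn (-0.28) and Lum (-0.48) lay below it. The part of these cell types in the Cdk6 result was not tested.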

How the data were processed

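The authors deposited 1 table of normalized counts per gene, treated here as a signal because its values are not whole numbers and whole reads could not be recovered. Per the labels' protocols, ribosomal RNA was removed from total RNA before stranded, paired-end sequencing. Per the submitters' processing notes, Trim Galore 0.4.5, FastQC, Salmon 0.12.0, DESeq2 1.22.1, R 3.5.3 and the mm10/GRCm38 build were used, with roles not given in the sources used here. All 54393 identifiers matched GENCODE M21, whose positions are printed. Values were converted to log2(normalized count + 1). Genes with a mean of at least 10 were fitted with limma 3.58.1 in R 4.3.3 (trended prior variance, no covariate, 3 against 3 samples), with Benjamini-Hochberg adjustment over all genes and a threshold of 0.05. Differences of low genes are understated on this scale. Depth was estimated from the most frequent low value, taken as 1 read. Copies (blastn 2.17.0) were matches of 95% identity or more that spanned 50% or more of the shorter transcript, with 100 or more aligned bases. Shares used exact permutation tests (scipy 1.17.1, Python 3.11.15). The fitting code was run on simulated normal log2 values with known changes, which does not test whether these data meet the model.

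The 9 genes, the pathway and marker lists and the tests were chosen with earlier results of these data known. Named genes are the 9, Dock3, the most abundant gene per kilobase and any gene past the threshold of each list, the 5 genes most like Cdk6, its nearest tested neighbours, overlapping genes and copies. Others named (Gm10184, Hal, Mki67, Top2a, Col15a1, Dcn, Lum, Myod1, Pax7, Myf5, Csf1r, Gm42418, Lars2 and genes below the filter) were chosen after their values were seen. Alternatives changed the pseudocount, filter, scaling, prior variance, replicate block, gene types, exon length and libraries used. A further leukocyte marker is not reported here.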

Additional observations from a re-analysis of the deposited data

How the results depend on the processing

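Precision rests on 3 muscles per genotype, and for Cdk6 in Dock3 KO on few reads. No gene of the 8 other than Cdk6 passed an adjusted p of 0.05 (limma) in any of 19 alternatives, nor did a tested neighbour of Cdk6. Over those alternatives the log2 difference of Cdk6 ranged from -5.55 to -4.16 and that of Ccnd2 from 0.30 to 0.77. The pathway genes had 1 gene past the threshold when samples were rescaled to the same total (Aurka), and 0 to 1 when 1 muscle was left out (Aurka without WT replicate 3, E2f2 without Dock3 KO replicate 1). The count of all genes past the threshold was 104 with an untrended prior variance, 104 with protein-coding genes only (fewer genes tested), and, in alternatives chosen after seeing the data, 57 with log2 Gm42418 as a covariate and 56 with Dock3 KO replicate 3 alone against WT (fewer samples). It was 100 to 159 with 1 muscle left out, and lowest when WT replicate 4 (100) or Dock3 KO replicate 2 (102) was the one left out.

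Log2 differences near 0 changed sign, each staying within its 95% interval above, and the cause was not tested. Rescaled to the same total, Ccnd3 was at -0.20, Cdkn1b at -0.22 and Cdkn2c at -0.15. Rescaled without Gm42418 and Lars2, which put the median of all genes at -0.11, Ccnd3 was at -0.027 and Cdkn1b at -0.048. With log2 Gm42418 as a covariate, Ccnd1 was at 0.037, Cdkn1b at -0.074, Cdkn2c at -0.22 and Rb1 at 0.039. With Dock3 KO replicate 3 alone, a lone sample assumed to vary like the WT group, Cdkn1b was at -0.055, Cdkn2c at -0.20 and Rb1 at 0.026. With 1 muscle left out, Ccnd3 ran from -0.060 to 0.23, Cdkn1b from -0.023 to 0.14, Rb1 from -0.23 to 0.030, and the difference in the share of Ccnd3 from -2.89 to 3.42 percentage points. With the longest transcript in place of merged exons, the WT ratio of Cdk6 to Cdk4 was 0.264. The differences in the shares of Ccnd1 and Ccnd2 were then -8.31 and 9.63 percentage points, against -10.2 and 10.7 by merged exons.

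Replicate numbers 1 and 3 occur in both genotypes, and same-numbered samples deviated together by correlations of 0.065 and 0.0066 only. A replicate block gave 127 genes past the threshold, Cdk4 at 0.0035 and Rb1 at 0.029. In that fit WT replicate 4 and Dock3 KO replicate 2, whose numbers occur in 1 genotype only, do not enter the difference. A change from the main fit can therefore come from leaving out those muscles.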

Other observations

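The genes here were chosen after their values were seen, and values keep the order of replicates used above. Tk1, a thymidine kinase gene of the replication list, had normalized counts of 44.3, 46.5 and 52.2 for WT against 121, 65.6 and 69.3 for the mutant (log2 difference 0.77, adjusted p = 0.383, limma). Its highest value was in Dock3 KO replicate 1, as for Ccnd2 and for the summed erythrocyte markers (97653 normalized counts, against 28542 to 54916 in the other 5 muscles). E2f2, an activating E2F, had 128, 113 and 91.9 for WT against 131, 31.6 and 30.3 for the mutant (log2 difference -1.11, adjusted p = 0.472, limma). Without Dock3 KO replicate 1 its adjusted p was 0.0242 (limma). That fit leaves out the mutant muscle at the WT level, so this p is a description and no support for a difference. Pax7, the defining transcription factor of satellite cells, was also highest in replicate 1 among the mutant muscles, at 71.9, 72.0 and 67.6 normalized counts for WT against 71.0, 19.4 and 24.6 for the mutant (log2 difference -1.09, adjusted p = 0.412, limma). Dock3 KO replicate 1 was at the WT level for E2f2 and Pax7, but not for Cdk6 (20.0 normalized counts), Ccnd2 (841) or Tk1. That muscle also kept the highest Dock3 value of the mutant muscles (22.4), and a link between these values was not tested. The satellite cell markers Chrdl2 and Calcr had higher means in the mutant, as given above.

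The p53 targets Bbc3 and Eda2r were lower in each mutant muscle than in each WT muscle, without passing the threshold. They were the 2 of 12 genes (16.7%) of that list without overlap, near the 16.2% of all genes tested. Bbc3, which encodes the cell death protein PUMA, had normalized counts of 19.97, 30.6 and 52.7 for WT against 16.6, 3.59 and 10.96 for the mutant (log2 difference -1.73, adjusted p = 0.318, limma). Eda2r, a receptor of the tumour necrosis factor family, had a log2 difference of -0.49 (adjusted p = 0.311, limma). Of the 12 genes of that list, 8 had a log2 difference above 0. Rbm48, a gene within 1 Mb of Cdk6, had 215, 129 and 143 for WT against 103, 109.7 and 71.4 for the mutant (log2 difference -0.76, adjusted p = 0.318, limma).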
